A study of Homo sapiens with 8 samples.

Results

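A set of 147 array probes gave little or no signal in DLD1 colorectal cancer (CRC) cells until trichostatin A (TSA) was added, and then gave signal with and without UHRF1 depletion. The probes were chosen by their measured signal. A member had a processed signal of 25 or more on all 4 arrays with TSA and under 10 on all 4 arrays without it, after spots of the same probe were averaged. The 147 members were 0.291% of the 50599 probes on the array and carried 130 of its 36619 distinct gene or transcript names. Of the 22242 probes under 10 on every array without TSA, the members were 0.661%. Because TSA against mock selected these probes, their rise with TSA is a description and was not tested. The rule set the same floor for both siRNA groups under TSA, so how the members differed between UHRF1-depleted and control cells under TSA was tested.

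DLD1 is an established human CRC line. Cells received control siRNA (siCONT) or 1 of 2 siRNAs against UHRF1 (siUHRF1-1 or siUHRF1-2), and 48 h later either 300 nM TSA or ethanol (mock) for another 24 h. This gave 4 groups, namely siCONT mock, depleted mock, siCONT TSA and depleted TSA. Each group had 2 arrays, and the 2 arrays of a depleted group carried the 2 different siRNAs. The knockdown was transient and every array came from 1 cell line. All groups went through transfection, including the siCONT cells.

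TSA blocks zinc-dependent histone deacetylases (HDACs), the enzymes that take acetyl groups off histone tails, and acetylated chromatin is in general more accessible to transcription. UHRF1 brings the maintenance DNA methyltransferase to newly replicated DNA, so that DNA methylation is diluted in dividing cells that lack it. Genes of other tissues are often kept silent in cancer cells by both layers.

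All 8 arrays were on 1 slide. The mock arrays lay in row 1 and the TSA arrays in row 2, so TSA and slide row cannot be told apart for any member. The siCONT arrays lay in columns 1 and 2 and the depleted arrays in columns 3 and 4, so UHRF1 depletion and slide column cannot be told apart either. UHRF1 itself had signals of 541 and 575 in siCONT mock cells and 240 and 148 in depleted mock cells. Under TSA it had signals of 346 and 340 in siCONT cells and 51.0 and 37.0 in depleted cells. All 12 colon epithelial markers examined were well above background on all 8 arrays. PTPRC, the pan-leukocyte marker, and COL1A2 and COL3A1, the fibroblast collagens, were above background on no array. The arrays of a siCONT group were nearly repeats of each other, differing by 1.18 (mock) and 1.09 (TSA) times the noise between spots of 1 array, whereas the depleted arrays differed by 12.8 and 10.3 times that noise. Nothing in the sources says that the siCONT arrays came from separate cultures, so p-values may reflect technical spread on that side. The members called are therefore given also with the siCONT arrays averaged and counted as 1 sample.

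The sequences upstream of a few members show how different these silent genes were in promoter make-up. The windows are the 250 bases before the RefSeq start on build GRCh38.p14, 5′ to 3′ on the strand of the gene, and capitals mark matches on either strand to the GC box, the TATA box, the CCAAT box or the AP-1 site, whose letters are given with the promoter shares further on. SCGB2A1, a secretoglobin, was picked as a window with 0 CpG dinucleotides (chr11:62208423-62208672). CYP1A1, a cytochrome P450 of xenobiotic metabolism, has 10 CpGs with a TATA box near the start (chr15:74725529-74725778). HLA-DPB1, the beta chain of the class II molecule HLA-DP, has 2 CpGs and an AP-1 match (chr6:33075740-33075989). ZCCHC12, a zinc finger coactivator, has 22, the most of the windows printed here (chrX:118823574-118823823). Other member windows hold more CpGs, such as 41 at 1 start of REEP1. TRIML2, a member of the tripartite motif family, has 5 in the window of the first listed start (chr4:188109604-188109853). ANKRD1, an ankyrin repeat protein best known from heart muscle, has 4 and is shown as a member that was lower with UHRF1 depletion (chr10:90921088-90921337).
SCGB2A1: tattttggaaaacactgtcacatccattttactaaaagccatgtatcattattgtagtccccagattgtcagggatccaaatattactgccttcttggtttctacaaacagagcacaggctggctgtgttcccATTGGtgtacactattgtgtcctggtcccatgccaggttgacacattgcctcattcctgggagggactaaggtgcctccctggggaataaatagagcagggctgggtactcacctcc
CYP1A1: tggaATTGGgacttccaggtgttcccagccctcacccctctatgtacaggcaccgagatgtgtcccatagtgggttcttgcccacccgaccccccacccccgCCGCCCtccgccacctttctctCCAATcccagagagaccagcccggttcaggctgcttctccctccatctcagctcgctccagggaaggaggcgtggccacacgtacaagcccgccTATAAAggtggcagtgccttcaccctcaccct
HLA-DPB1: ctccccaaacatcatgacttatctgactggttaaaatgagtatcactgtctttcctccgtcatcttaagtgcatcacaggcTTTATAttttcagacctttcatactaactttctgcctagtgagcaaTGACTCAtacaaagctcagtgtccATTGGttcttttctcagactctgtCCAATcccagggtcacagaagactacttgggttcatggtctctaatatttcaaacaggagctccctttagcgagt
ZCCHC12: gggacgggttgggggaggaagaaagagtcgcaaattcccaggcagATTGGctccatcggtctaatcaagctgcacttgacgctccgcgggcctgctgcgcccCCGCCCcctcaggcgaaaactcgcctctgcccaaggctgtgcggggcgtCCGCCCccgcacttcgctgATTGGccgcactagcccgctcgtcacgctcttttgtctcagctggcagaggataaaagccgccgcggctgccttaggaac
TRIML2: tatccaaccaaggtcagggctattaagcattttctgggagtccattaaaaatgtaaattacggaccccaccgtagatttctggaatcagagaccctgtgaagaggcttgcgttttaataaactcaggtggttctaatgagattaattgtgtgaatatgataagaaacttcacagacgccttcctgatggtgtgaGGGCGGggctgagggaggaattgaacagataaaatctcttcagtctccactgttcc
ANKRD1: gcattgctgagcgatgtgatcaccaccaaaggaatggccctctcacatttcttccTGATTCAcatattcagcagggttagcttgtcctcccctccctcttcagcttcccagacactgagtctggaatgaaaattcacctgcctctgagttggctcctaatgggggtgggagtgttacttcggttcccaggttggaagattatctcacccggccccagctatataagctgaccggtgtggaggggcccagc

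Unnamed transcripts carried some of the clearest signals, and for these the probe itself is the only description of what was measured. The 60-base probes below are printed as the array lists them, with hg19 coordinates. XLOC_l2_010338, an intergenic transcript at chr3:127002627-127002686 on the minus strand, had a change with UHRF1 depletion exceeded among the members only by SPANXB2. The uncharacterized transcript LOC100130938 was hit by a pair of member probes (chr18:59273301-59273360 and chr18:59273315-59273374) that share the 46 bases in capitals, so their values are not independent.
XLOC_l2_010338: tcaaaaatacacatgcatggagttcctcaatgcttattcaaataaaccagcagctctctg
LOC100130938: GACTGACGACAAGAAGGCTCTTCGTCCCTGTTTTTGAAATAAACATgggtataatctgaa
LOC100130938: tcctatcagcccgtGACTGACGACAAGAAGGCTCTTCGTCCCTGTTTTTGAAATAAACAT

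On the arrays without TSA the members lay at the noise floor. Of the 588 member values there, 350 had been replaced by the scanner software's surrogate, a noise-based stand-in for a signal not above background, and 39 members had the surrogate on all 4 mock arrays. No member was well above background on any mock array, and all 147 were on all 4 TSA arrays. The mean signal ran from 2.62 to 9.17 (median 3.61) in siCONT mock cells and from 2.75 to 9.78 (median 4.08) in depleted mock cells. With TSA it ran from 27.1 to 685 (median 49.2) in siCONT cells and from 29.7 to 3601 (median 78.0) in depleted cells. In bulk RNA, more cells expressing a gene and more RNA per cell cannot be told apart.

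More members left the noise floor in depleted mock cells than in siCONT mock cells. They were above the surrogate for 50 and 50 members on the siCONT mock arrays, and for 74 members (50.3%) with siUHRF1-1 and 64 members (43.5%) with siUHRF1-2. Among all probes under 10 on the mock arrays, the shares above the surrogate were 23.7% and 22.4% in siCONT and 23.1% and 25.4% in depleted cells. The rule used these values and held them under 10, so they were not tested and give no effect of UHRF1 depletion alone.

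**Figure D1:**
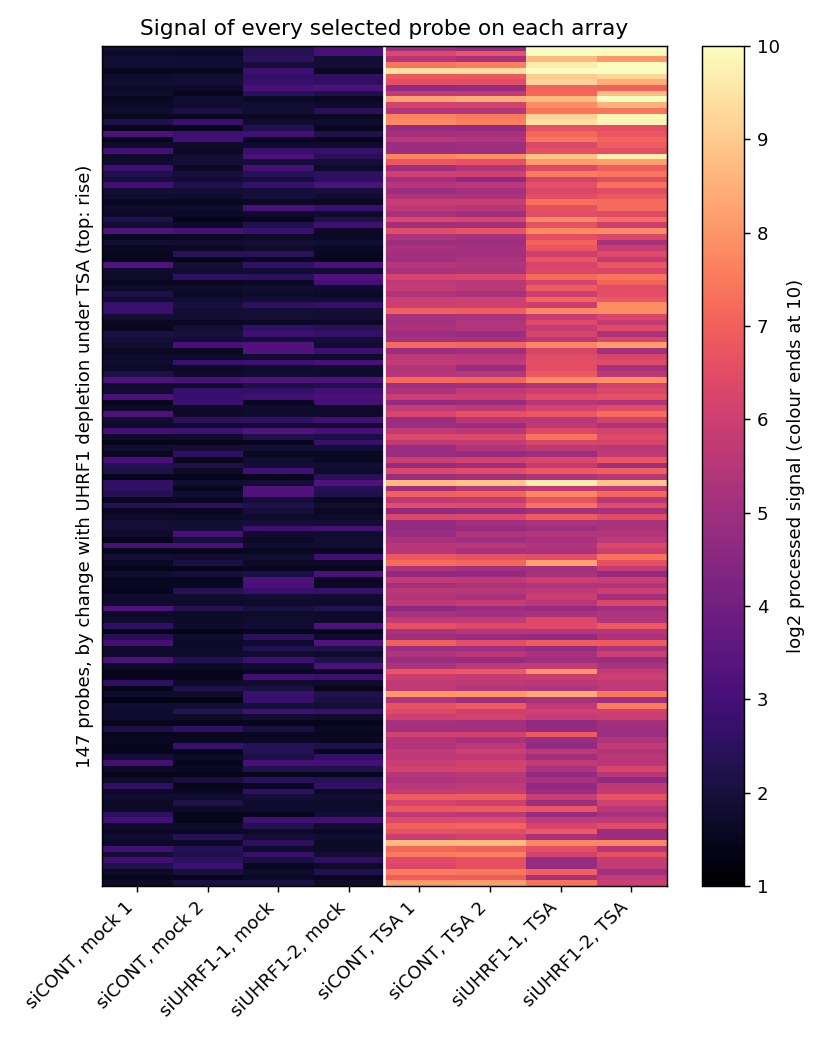
Signal (log2 scale) of the 147 member probes, one row each, on the 8 arrays in columns by group. The 4 mock columns are uniformly dark because the rule requires signals under 10 there, and the 2 depleted TSA columns are brighter than the 2 siCONT TSA columns (median signals 76.6 and 75.4 against 50.1 and 50.2).

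Since the mock signals gave no level, the size of the rise can only be bounded. The TSA level was divided by the lowest level at which probes on the mock arrays were called well above background. In siCONT cells the members rose at least 1.69-fold to at least 42.8-fold (median bound 3.07), and 12 members had a bound of 10-fold or more. In depleted cells the bounds ran from 2.29-fold to 270-fold (median 5.74), and 31 members reached 10-fold. The largest bounds in siCONT cells belonged to HBA2, an alpha-globin gene (at least 42.8-fold), RGS9, which ends G-protein signalling in photoreceptors and striatum (28.4-fold), CLIP4, a microtubule-linker family protein (26.1-fold), and NTS, the gut and brain peptide neurotensin (21.0-fold). They were followed by ENST00000417977 (18.0-fold) and XLOC_004834 (16.4-fold), which are not named genes, and by CYP1A1 (13.9-fold) and SCGB2A1 (13.2-fold). THC2682885, a transcript with no coordinate, had a bound of 12.1-fold. These bounds understate the rise of a member by an unknown amount.

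**Figure D2:**
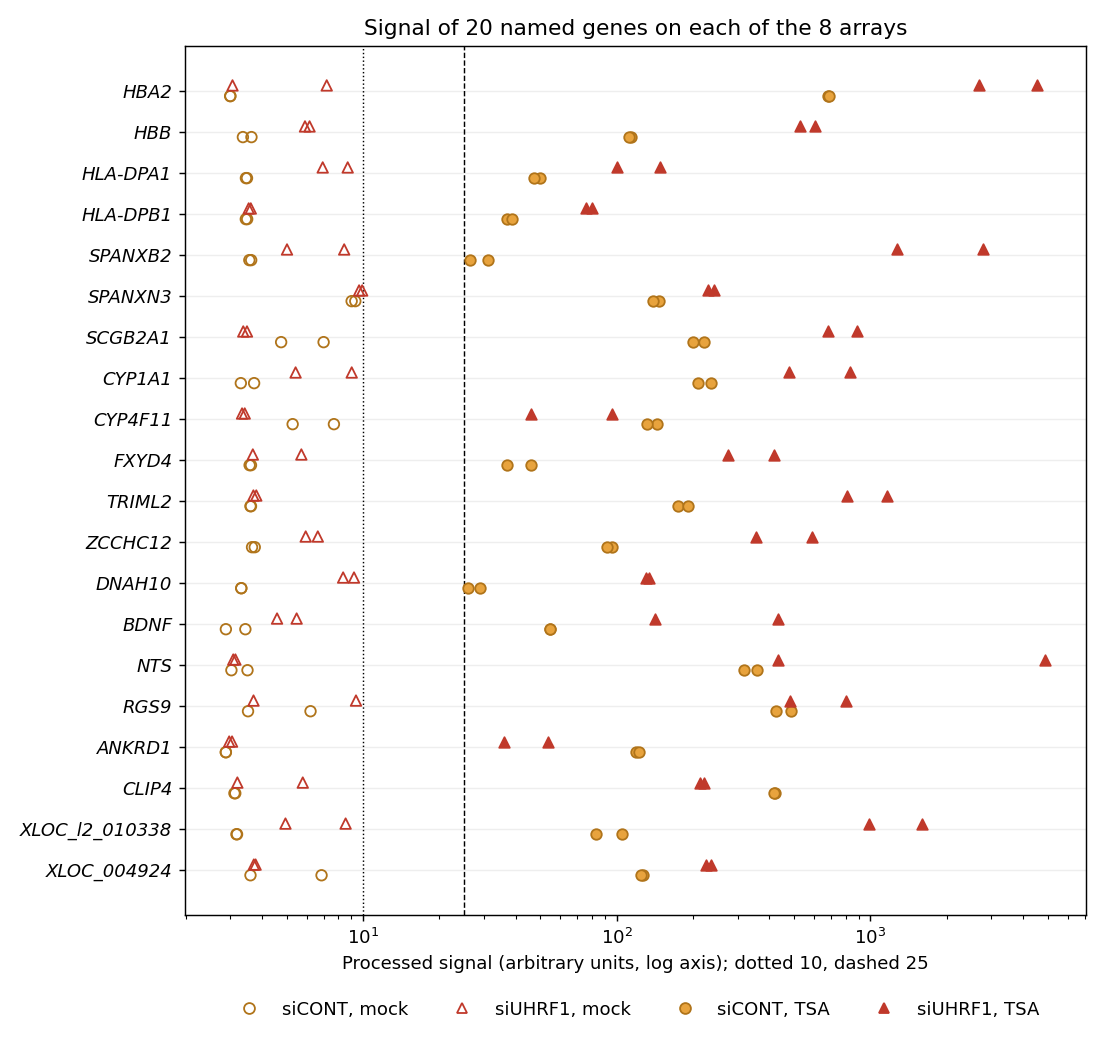
Processed signal (log axis, not scaled between arrays) of 20 named member genes on each of the 8 arrays, with the brightest member probe shown for a gene with several. Lines mark the rule's limits of 10 and 25, and every gene lies under the lower line on the 4 mock arrays and over the upper line on the 4 TSA arrays.

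The limits were not natural gaps. Just inside the limit of 25 were STAT4, a transcription factor of cytokine signalling (lowest TSA signal 25.1), Q88AI3 (25.8) and XLOC_l2_013730 (25.9). Just outside were a probe without a gene name, A_33_P3373805 (24.9), XLOC_000302 (24.9) and HBD, the delta-globin gene (24.8). At the limit of 10 on the mock arrays, CYRIA, a regulator of actin dynamics (9.96), SPANXN3 (9.92) and XLOC_003854 (9.86) were inside, and AGPAT4, an acyltransferase (10.0), KRTAP4-1, a hair keratin-associated protein (10.1), and ETNK2, an ethanolamine kinase (10.1), were outside.

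Many members were higher still under TSA when UHRF1 was depleted. Of the 147 members, 36 (24.5%, 33 names) were called higher in depleted than in siCONT cells under TSA, at an adjusted p under 0.05 over all 23844 tested probes and at least 2-fold. Over all tested probes, 5.39% were called higher. Only 2 members (1.36%) were called lower, ANKRD1 and 1 probe of CLIP4, against 2.87% of all tested probes. The members called higher included both globins, SPANXB2, a cancer-testis antigen, TRIML2, BDNF, a neurotrophin, and both chains of HLA-DP, and 109 members were not called. The fit pooled the spread of all 4 groups, so a member's SE and adjusted p also draw on mock values at the noise floor. With only the compared arrays in the fit, 38 members were called higher, of which 34 were among the 36. With the siCONT arrays counted as 1 sample, only HBB (adjusted p = 0.0442) and SPANXB2 (adjusted p = 0.0413) were still called, and no member was called lower. The adjusted p of the 36 in that limma fit ran from 0.0413 to 0.343. Without siCONT TSA replicate 1, and likewise without replicate 2, 17 members were called higher, and 17 were with another background correction (normexp).

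The shift was seen across the members rather than in the called ones alone. The median change was 0.61 on the log2 scale (1.52-fold), with quartiles of 0.17 and 1.21, and 115 members (78.2%) were above 0. Over all tested probes the median was 0.00, with quartiles of −0.34 and 0.34, and 50.03% were above 0. Both depleted arrays lay above both siCONT arrays for 95 members (64.6%) and below for 16 (10.9%). The same held for 35.0% and 34.5% of all tested probes with no tie.

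The floor of the rule bears on how far a member could fall. The mean siCONT TSA signal was under 50 for 74 members, and the mean depleted TSA signal was under 50 for 40, so these members could hardly have been called lower or higher, respectively, and still have met the rule. Among all 19674 tested probes with a signal of 25 or more on all 4 TSA arrays, which have the same floor, 2.70% were called higher and 2.71% lower, with a median change of −0.02 and 47.7% above 0. Their median siCONT TSA signal was 325, and the part of the floor in the members' count was not tested. The scaling also moved the shift. With each array scaled to its median, the median of all tested probes was −0.35 and that of the members 0.25, which left the members above all probes by a similar amount, and 8 members were then called lower. Over all tested probes that scaling gave 872 higher and 2129 lower calls, against 1285 and 685.

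**Figure D3:**
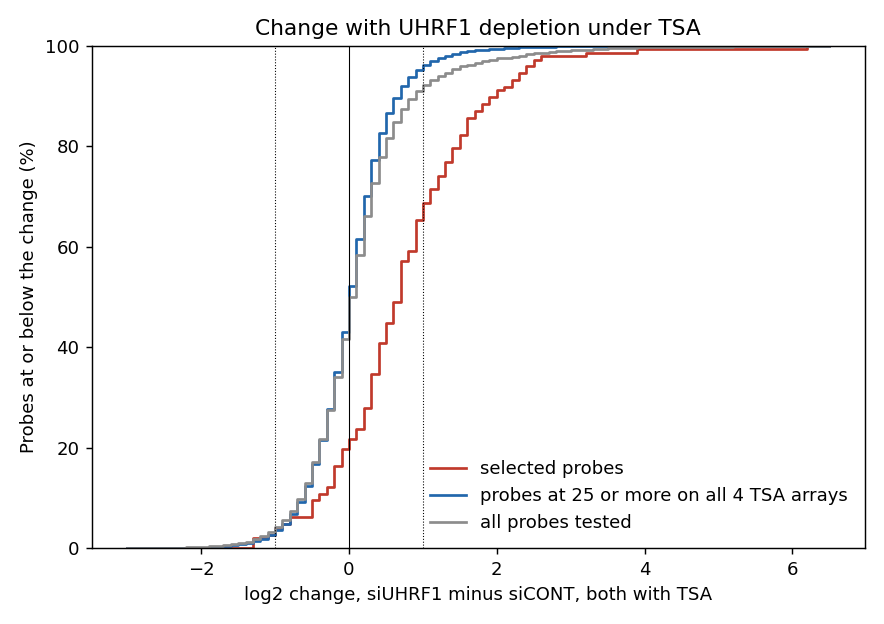
Cumulative percent of probes (y axis) at or below a given change with UHRF1 depletion under TSA (x axis, log2), for the 147 members, all tested probes, and tested probes with a signal of 25 or more on all 4 TSA arrays. The curve of the members lies to the right of the other curves over most of the range, with 78.2% of members above 0.

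Adult globin genes were among the members called higher. HBA2, which codes for the alpha chain of haemoglobin and is normally restricted to red cell precursors, was hit by 2 member probes. The first, at chr16:223555-223614, had signals of at most 7.19 on the mock arrays (the others were 2.99 to 3.06). With TSA it had 679 and 690 in siCONT cells and 2675 and 4528 with siUHRF1-1 and siUHRF1-2. The depleted signals lay well above the siCONT signals, and the change was 2.45 ± 0.33 (log2, SE; adjusted p = 0.00876, and 0.133 with siCONT as 1 sample, limma). The second HBA2 probe, at chr16:222889-222948, was dimmer, with 70.8 and 69.5 in siCONT TSA and 226 and 379 in depleted TSA cells (2.17 ± 0.21, adjusted p = 0.00425). HBA2 and HBA1 are nearly identical, so their signal is uncertain between the copies. HBB, the beta chain, at chr11:5246718-5246777, had 3.36, 3.63, 6.15 and 5.90 on the mock arrays, 114 and 112 in siCONT TSA, and 529 and 608 in depleted TSA cells. Its 2 depleted arrays differed little, and the change was 2.43 ± 0.13 (adjusted p = 0.000898).

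Other globin probes, looked up after the members were known, followed in part. HBD, just under the floor, had 24.8 and 27.6 in siCONT TSA and 72.5 and 97.2 in depleted TSA cells (change 1.79, adjusted p = 0.0452). Another HBA2 probe missed the rule through 1 mock value of 12.8 with siUHRF1-1 and otherwise gave 679, 682, 2645 and 4456 with TSA. The embryonic HBE1 and 1 of 2 probes of the fetal HBG1 were well above background on no array. The other HBG1 probe (signals from 44.7 to 75.3), 1 of 3 probes of the embryonic HBZ and the probe of HBQ1 were well above background on all 8 arrays, mock included. A second HBB probe was also at background everywhere, so the HBB signal rests on 1 probe.

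SPANXB2, a germ-cell gene family member expressed in sperm and in tumours, showed the largest change. Its probe at chrX:140097760-140097819 had 3.62, 3.56, 5.01 and 8.42 on the mock arrays. With TSA it had 31.2 and 26.3 in siCONT cells, barely inside the rule, and 2778 and 1276 in depleted cells, a change of 6.15 ± 0.49 (adjusted p = 0.00246). A second SPANXB2 probe had 3.54, 3.52, 3.68 and 21.4 on the mock arrays, the last with siUHRF1-2. With TSA this probe gave 16.9 and 19.2 in siCONT cells and 3128 and 1409 in depleted cells. TSA without UHRF1 depletion thus gave only a weak signal on both probes. SPANX copies are nearly identical and cannot be told apart with confidence. SPANXA1 had 5.49 and 8.08 in siCONT TSA and 1451 and 608 in depleted TSA cells, and was no member. SPANXN3 differed in pattern. It had mock signals between 9.01 and 9.92, 146 and 139 in siCONT TSA and 229 and 242 in depleted TSA cells, with a change of 0.83 under 2-fold (adjusted p = 0.0196). TEX14, needed for intercellular bridges of germ cells, had 51.7 and 43.7 in siCONT TSA and 43.1 and 50.4 in depleted TSA cells, and the groups overlapped.

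The class II genes HLA-DPA1 and HLA-DPB1, whose products pair to present peptides to T cells, lie next to each other on chromosome 6 and both had members there (chr6:33032848-33054418). HLA-DPA1 had 3.49, 3.45, 8.70 and 6.93 on the mock arrays, 50.1 and 47.2 in siCONT TSA and 100 and 148 in depleted TSA cells (1.43 ± 0.17, adjusted p = 0.00623). Of the 2 HLA-DPB1 member probes, 1 was called, with 36.8 and 38.6 in siCONT TSA and 80.1 and 75.8 in depleted TSA cells (adjusted p = 0.00808). The other had 35.5, 38.7, 58.1 and 78.2 and a change of 0.97, short of 2-fold. Other genes of the pathway were again looked up afterwards. CIITA, the class II transactivator, CD74, the invariant chain, HLA-DRA and HLA-DQA1 were above background on no array. HLA-DMA and HLA-DMB, the peptide-loading pair, were above background on every array, mock included, as was HLA-DRB1. Of the 4 HLA-DQB1 probes, the brightest had 10.4, 11.3, 13.4 and 8.38 on the mock arrays and, with TSA, 20.3 at most in siCONT cells and 40.7 and 34.7 in depleted cells. A second HLA-DPA1 probe was also above background on all 8 arrays, with signals from 53.1 to 102, so the silence of HLA-DPA1 without TSA held for the member probe only.

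Secreted factors formed a mixed group. BDNF at chr11:27679900-27679959 had 54.4 and 54.5 in siCONT TSA and 141 and 434 in depleted TSA cells, higher with siUHRF1-2 than with siUHRF1-1 (2.29 ± 0.45, adjusted p = 0.0226, and 0.224 with siCONT as 1 sample). FGF18, a fibroblast growth factor, had 35.4 and 36.7 against 142 and 107 (1.88 ± 0.25, adjusted p = 0.00875). SCGB2A1, whose CpG-free promoter window is printed above, had 222 and 200 against 683 and 890 (2.00 ± 0.21, adjusted p = 0.00523). NTS had 317 and 356 in siCONT TSA, 432 with siUHRF1-1 and 4867 with siUHRF1-2. The siRNAs thus differed 10.3-fold for NTS, and the change of 2.22 ± 0.97 was not called (adjusted p = 0.164). CCN2, a matricellular growth factor modulator, had 95.8, 89.1, 161 and 93.5. The complement component C3 had 75.6, 98.9, 111 and 153 and was not called.

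Among enzymes, CYP1A1 had 209 and 235 in siCONT TSA and 480 and 830 in depleted TSA cells (1.62 ± 0.25, adjusted p = 0.0126). TGM2, a protein crosslinking transglutaminase, had 110 and 97.5 against 284 and 299 (1.60 ± 0.14, adjusted p = 0.00338). Another TGM2 probe had only 7.98 and 4.25 in siCONT TSA and 28.7 and 27.7 in depleted TSA cells. ALOX5, which starts leukotriene synthesis, and SRD5A2, which makes dihydrotestosterone, were also called higher, with changes of 1.31 and 1.09. By contrast, CYP4F11, a fatty acid hydroxylase, had 144 and 132 against 95.7 and 46.0 (−0.95, adjusted p = 0.153). NNMT, the nicotinamide methyltransferase, had 149, 140, 213 and 287 and was not called (adjusted p = 0.251).

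Transporters and channels followed the same mixed course. FXYD4, a small regulator of the sodium pump, had mock signals from 3.57 to 5.71, 45.8 and 36.8 in siCONT TSA, and 418 and 274 in depleted TSA cells (3.15 ± 0.27, adjusted p = 0.00281). ABCG4, a sterol exporter, and PLTP, the phospholipid transfer protein of plasma, were called higher with changes of 2.11 and 1.86. CACNA1G, a T-type calcium channel gene known for promoter methylation in CRC, had 46.2 and 48.8 against 97.6 and 163 (1.52 ± 0.37, adjusted p = 0.0404). RYR1, the calcium release channel of skeletal muscle, had 45.3, 48.9, 26.7 and 48.7 and overlapped. SLC40A1, the iron exporter ferroportin, had a change of 0.81 (adjusted p = 0.0441), SLC2A14, a glucose transporter, 1.34 (adjusted p = 0.0792), and SLC39A12, a zinc transporter, 0.22 (adjusted p = 0.610), and none of the 3 met both limits of a call.

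Structural and contractile genes included DNAH10, an axonemal dynein heavy chain, with 26.0 and 28.9 in siCONT TSA and 134 and 131 in depleted TSA cells (2.38 ± 0.18, adjusted p = 0.00231). MYL9, a myosin light chain of smooth muscle, had 31.3 and 31.7 against 96.8 and 95.5 (1.72 ± 0.42, adjusted p = 0.0412). Its mock signals, whose spread also enters that SE, were 8.01, 3.14, 6.89 and 6.59. COL1A1, the collagen I chain that served as a fibroblast marker, was itself a member with 50.3, 48.1, 72.3 and 135 and was not called (adjusted p = 0.210). The keratin KRT34 had 102, 90.5, 118 and 29.3, and KRTAP2-3, a hair keratin-associated protein, 152, 141, 309 and 96.5. For both, the siUHRF1-2 signal was the lowest of the 4 TSA arrays and the siUHRF1-1 signal the highest.

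Among regulators of transcription and signalling, ZCCHC12 had mock signals from 3.65 to 6.63, 95.6 and 91.5 in siCONT TSA and 591 and 353 in depleted TSA cells (2.39 ± 0.27, adjusted p = 0.00615). TRIML2 had 3.60, 3.61, 3.79 and 3.69 on the mock arrays, 174 and 191 in siCONT TSA and 812 and 1160 in depleted TSA cells (2.52 ± 0.18, adjusted p = 0.00181, and 0.0524 with siCONT as 1 sample). GLI1 and GLI2, the transcription factors at the end of hedgehog signalling, were both members. GLI1 had 33.6 and 33.8 against 97.7 and 63.3 (1.33, adjusted p = 0.0639), and neither GLI2 member probe was called (changes 0.18 and 0.33). Of the other hedgehog genes looked up afterwards, GLI3 and the transducer SMO were above background on no array. RGS9 had 424 and 488 in siCONT TSA and 803 and 484 in depleted TSA cells, with a change of 0.56 (adjusted p = 0.545).

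The members that were lower with UHRF1 depletion were few. ANKRD1 at chr10:92672562-92672621 had mock signals from 2.88 to 3.04, 120 and 123 in siCONT TSA, and 36.1 and 53.4 in depleted TSA cells. All 3 CLIP4 member probes had both depleted arrays below both siCONT arrays. They had 186 and 193 against 71.2 and 98.7, 419 and 417 against 220 and 212, and 130 and 138 against 75.02 and 90.9. The change was −1.36 ± 0.18 for ANKRD1 (adjusted p = 0.00893) and −1.07 ± 0.22 for the first CLIP4 probe (adjusted p = 0.0257), and the other CLIP4 probes fell by 0.84 and 0.59 on the log2 scale, under 2-fold. The largest fall belonged to ENST00000417977, with 281 and 295 against 166 and 62.5 (−1.39, adjusted p = 0.0860), which was not called.

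**Figure D4:**
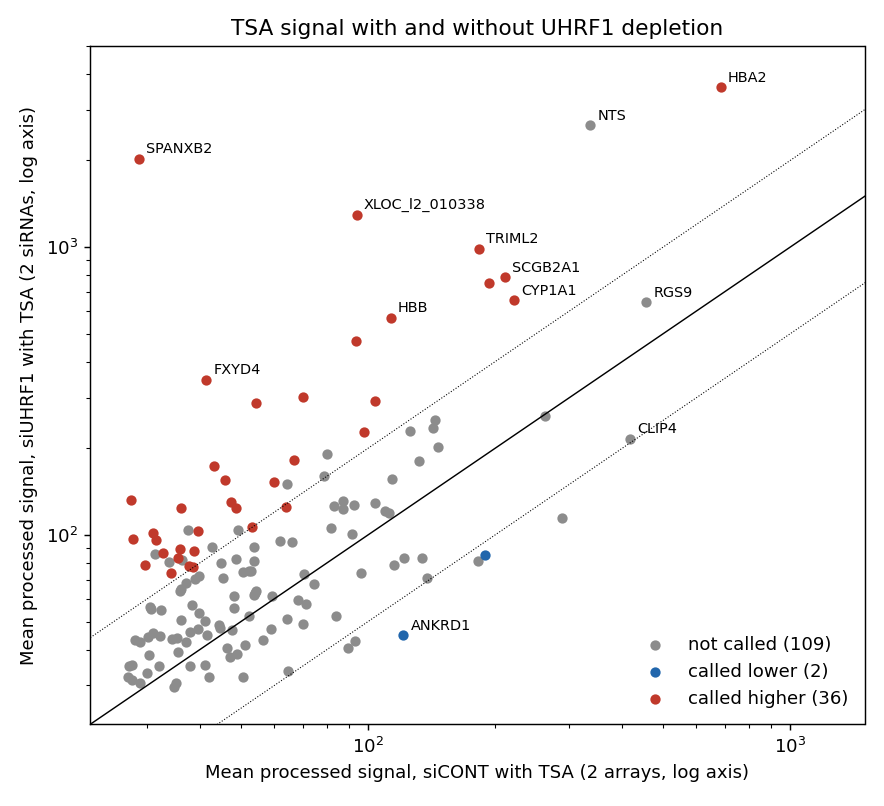
Mean signal with TSA in siCONT cells (x axis) and UHRF1-depleted cells (y axis) of the 147 members, both on log axes, coloured by the call in limma. The 36 members called higher lie above the diagonal, led by SPANXB2, the 2 called lower lie below it, and 109 were not called.

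Unnamed and non-coding transcripts were also among the members. Those with an XLOC name made up 22.4% of the members, against 23.4% of all probes and 39.5% of those under 10 on all mock arrays. XLOC_l2_010338 had mock signals of 3.18, 3.17, 4.94 and 8.53, 83.0 and 105 in siCONT TSA and 1605 and 991 in depleted TSA cells (3.86 ± 0.42, adjusted p = 0.00557). LOC100130938 had 30.8 and 34.5 against 79.0 and 93.9 on the first of its overlapping probes and 40.3 and 38.7 against 92.9 and 114 on the second. THC2682885 had 206 and 182 against 573 and 930 (2.02 ± 0.22, adjusted p = 0.00547). Probes of XLOC_004924 and LOC100505994 shared 1 stretch of chromosome 5 (chr5:90598761-90609980) with 6 member probes. Of the 4 XLOC_004924 probes, 1 was called higher (91.1 and 105 against 224 and 230), and the others had changes of 1.13, 0.98 and 0.45. XLOC_004834 had 263 and 263 against 337 and 181 and a change of 0.02.

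The siRNAs agreed on the direction of the median shift, but single members differed in size and some in direction. XLOC_010724, for example, had changes of 1.34 with siUHRF1-1 and −0.99 with siUHRF1-2, and TMPRSS11F had −0.84 and 0.82. The median change of the members was 0.70 with siUHRF1-1 (0.03 over all tested probes) and 0.53 with siUHRF1-2 (−0.01 over all). With siUHRF1-1, 53 members were at least 2-fold higher and 4 lower, and with siUHRF1-2, 45 were higher and 8 lower. With both siRNAs, 35 members were at least 2-fold higher and 1 at least 2-fold lower. The siRNAs differed more than 2-fold from each other for 24 members, of which 20 were higher with siUHRF1-1 and 4 with siUHRF1-2. No member differed more than 2-fold between the siCONT TSA arrays. The SD of the difference was 0.79 on the log2 scale between the siRNAs and 0.19 between the siCONT TSA arrays. The siCONT TSA arrays differed by only 1.09 times the noise between spots, so 0.19 is close to technical spread. Each siRNA had 1 array under TSA, so siRNA, culture and slide column cannot be told apart.

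**Figure D5:**
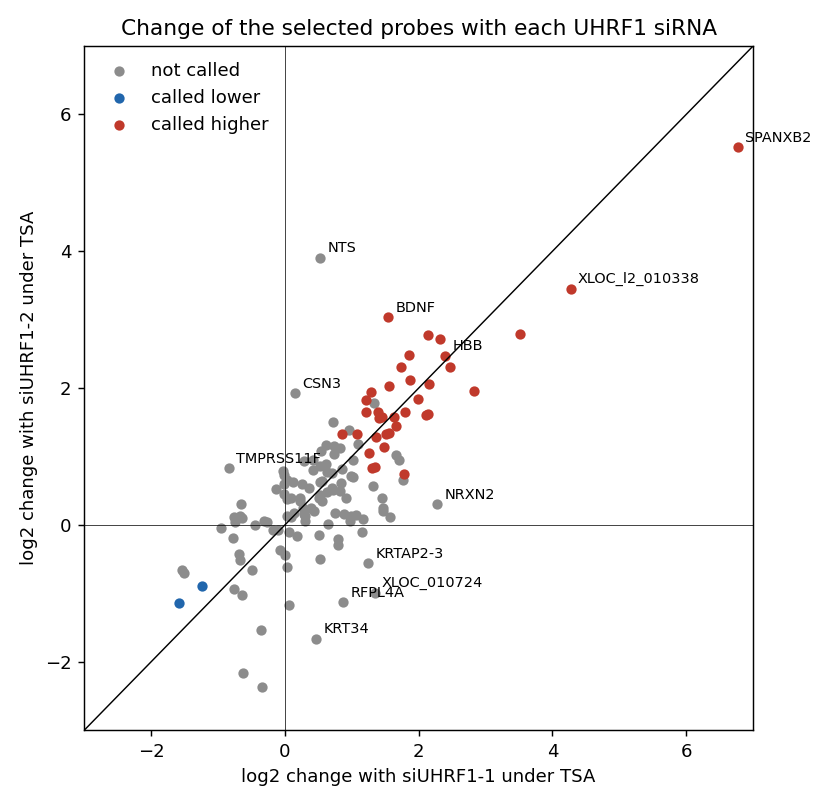
Change of each member under TSA (log2, against the mean of the siCONT TSA arrays) with siUHRF1-1 (x axis) and siUHRF1-2 (y axis). Most points lie in the upper right, where both siRNAs gave a higher level, and NTS stands out for siUHRF1-2 with a 10.3-fold difference between the siRNAs.

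Other probes of the same genes did not always follow. For 46 member genes the array held 66 further probes. Of these, 23 were well above background on no array, 15 on all 4 TSA arrays and no mock array, 14 on some TSA arrays and no mock array, and 14, of 13 genes, on at least 1 mock array. Among them were LOC100130938, XLOC_002543, XLOC_004924, SFTA1P, XLOC_l2_008226, XLOC_l2_013730, GLI2, STAT4, HLA-DPA1, SPANXB2, REPS2 and DNAH10. For these genes the silence without TSA did not hold for every probe. A second STAT4 probe, for example, had 18.4, 14.6, 15.3 and 44.4 on the mock arrays and 297, 284, 375 and 370 with TSA. For other genes the signal with TSA did not hold for every probe. Another BDNF probe had 6.44 and 3.21 in siCONT TSA and 13.9 and 44.3 in depleted TSA cells. The other ALOX5 and DNAH10 probes were well above background on no TSA array, and the other CACNA1G probe on 1 TSA array. In 12 genes at least 2 probes were members, 29 probes in all. They were AADACP1, ARMH4, CLIP4, GIHCG, GLI2, HBA2, HLA-DPB1, LOC100130938, LOC100505994, XLOC_004924, XLOC_009788 and XLOC_l2_013730.

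By transcript type, 83 members (56.5%) were assigned to protein-coding RefSeq transcripts, against 49.8% of all probes and 30.5% of the probes under 10 on all mock arrays. Members with an XLOC name numbered 33 (22.4%), against 23.4% of all probes and 39.5% of the dim ones. The 146 members with a coordinate fell into 127 loci when members within 100000 bases were joined, and 11 loci held 2 or more members. Chromosome 5 carried 14 members (9.59%, against 4.88% of all probes) and chromosome 19 carried 13 (8.90%, against 4.86%). Chromosome 1 carried 3 (2.05%, against 9.81%). The 14 on chromosome 5 include the 6 of 1 locus.

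Promoter windows were found for 57 member genes with 85 starts. Their median GC content was 56.8%, against 58.0% over 35116 starts of 27305 genes, and the median CpG observed over expected ratio was 0.457 against 0.558. A ratio of 0.6 or more was found for 41.2% of member starts and 47.5% of all. GC boxes (GGGCGG) were in 42.4% of member windows and 42.6% of all, TATA boxes (TATAAA) in 15.3% and 10.72%, CCAAT boxes in 35.3% and 32.0%, and AP-1 sites (TGANTCA) in 11.8% and 6.57%. E-boxes (CACGTG) were in 5.88% and 6.35%, and the cAMP response element TGACGTCA in 0 and 1.65%. Several starts of 1 gene overlap, and these shares were not tested.

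The lists of related genes place the members among what TSA did elsewhere. In siCONT cells TSA raised 10.4% of tested probes and lowered 8.21%, and in depleted cells 11.7% and 9.01%. The balance in depleted cells depended on the scaling, with 2798 higher and 2154 lower as reported and 2033 higher and 4721 lower when each array was scaled to its median. Scaled to the 75th percentile over detected probes, the calls were 3370 higher and 1567 lower in depleted cells and 2815 and 1434 in siCONT cells, against 2408 and 1909 there as reported. With the siCONT arrays averaged, 362 in place of 4317 probes were called in siCONT cells. Of genes known to respond to HDAC inhibitors in many cell types, 5 of 9 tested were higher and 1 lower with TSA in siCONT cells, and none was a member. Of the zinc-dependent HDAC genes, 1 was higher and 1 lower of 10. Of the metallothioneins, the metal-binding stress proteins, 8 of 10 were higher and none was a member, and of the SNAR small noncoding RNAs, 7 of 8. Of the histone genes, 0 of 74 were higher and 42 lower. Muscle contractile genes were higher for 7 of 12 and keratins for 12 of 49. Neuronal genes, with BDNF as their member, were higher for 4 of 10.

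For UHRF1 depletion under TSA, the counts of the same lists stand beside 5.39% higher and 2.87% lower over all tested probes. A gene could enter these counts, like those for TSA against mock, with signal in only 1 of the groups compared. Such entry favours calls towards the group with signal. The SPANXA1 probe, with 5.49 and 8.08 in siCONT TSA and 1451 and 608 in depleted TSA cells, was tested in this way. Probes at 25 or more on all 4 TSA arrays gave 2.70% higher and 2.71% lower. The part of such entry in the list counts was not tested. Of the cancer-testis antigen families, 18 of 38 tested genes were higher and 1 lower, with a median change of 1.60, and 2 of them were members. For TSA against mock in siCONT cells, 22 genes of these families were tested. Ion channel subunits were higher for 17 of 77, neuronal genes for 5 of 13, and muscle contractile genes for 5 of 16. Germ cell and meiosis genes were higher for 2 of 8, metallothioneins for 3 of 11, histone genes for 10 of 75, keratins for 3 of 53, protocadherins for 1 of 13 and LINC-named RNAs for 17 of 158. Solute carriers were higher for 7 and lower for 9 of 265. Zinc finger genes named ZNF were higher for 3 and lower for 12 of 411. Unnamed XLOC transcripts were higher for 110 and lower for 28 of 1377, with 33 member probes of 26 names among them.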

How the data were processed

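RNA of 8 DLD1 samples was hybridized to Agilent 1-colour (Cy3) arrays. The deposited array files hold a processed intensity for each spot on a linear scale, made by the authors with Agilent Feature Extraction 10.7, per the labels and the file headers, with local background subtracted and no scaling between arrays. The authors' value table holds the same intensity in the series matrix and served as an alternative.

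Groups were taken from the labels. Spots of a probe were averaged (feature outliers left out of the fit, not of the rule) and the rule was applied to the processed signal. For the test, levels were the log2 signal minus the 75th percentile of the array. The levels of all 8 arrays entered 1 limma fit (version 3.58.1, R 4.3.3, lmFit and eBayes) with 4 group means, 4 residual and 2.17 prior degrees of freedom. The SE of a contrast between TSA groups thus also holds the spread of the mock arrays, where members lay at the noise floor. Testing required the software's flag for a signal well above background on every array of 1 or both groups compared. A probe was called at a Benjamini-Hochberg adjusted p under 0.05 over all tested probes and at least 2-fold. The number of arrays, 2 per group, limits the precision. The flag was set for 43.3% to 48.0% of probes per array.

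Bounds of TSA over mock used, on each mock array, the higher of the lowest signal among probes well above background and the probe's own. Gene lists were counted with the brightest probe of a gene. Promoter sequences came from RefSeq (GRCh38.p14) and probe positions from the files (hg19), and 88 members were matched to RefSeq by transcript identifier. The code was tested on simulated data.

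The members and all lists were chosen with earlier results of these data known. Members were named by rule: the 10 largest called rises and falls with UHRF1 depletion, the 10 largest bounds in siCONT cells, members of the gene lists, the 3 members or probes on each side of the rule's limits, genes with another probe above background without TSA, and genes with several member probes. Other members, and the further globin, class II, hedgehog and SPANX genes, were named after their values were seen.

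Alternatives were the background correction, 3 other scalings, no filter on dim probes, the value table, averaged siCONT arrays, a replicate block, fewer arrays in the fit, the methods' t-test, and leaving out each array. The study's methods name GeneSpring for the array analysis and its scaling is not given in the sources used here. A withheld item is not reported here.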

Additional observations from a re-analysis of the deposited data

How the results depend on the processing

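The members' median change and the 12 named calls kept their direction under all alternatives run, but the balance of calls over all probes turned with median scaling. For UHRF1 depletion under TSA, 1970 probes were called, and 745 with the normexp background, 3001 with each array scaled to its median, 165 with averaged siCONT arrays and 0 by the methods' t-test after Benjamini-Hochberg adjustment (1863 at an unadjusted p under 0.05 and 2-fold). Members called higher numbered 36, and 17, 27, 2 and 0 under the same alternatives. By the unadjusted methods' t-test they numbered 36, of which 33 were shared. Members called lower numbered 2, and 0 with normexp, averaged siCONT arrays or the adjusted methods' t-test, 1 with quantile scaling, with the percentile over detected probes or without the filter on dim probes, and 8 with median scaling. The members' median change of 0.61 was 0.33 with normexp and 0.25 with median scaling, which put the median of all tested probes at −0.35. Median scaling gave 872 higher and 2129 lower calls, against 1285 and 685 as reported, and the percentile over detected probes gave 1511 and 489. For TSA in depleted cells median scaling gave 2033 higher and 4721 lower calls, against 2798 and 2154. For TSA in siCONT cells 4317 probes were called, and 1713 with normexp and 362 with averaged siCONT arrays. For TSA in depleted cells 4952 were called, and 2367 with normexp, and 3286 and 0 by the methods' t-test before and after adjustment. With a replicate block, 1915 probes were called for UHRF1 depletion under TSA, with 30 members higher, all shared with the 36, and 3 lower. The numbers do not pair the groups, since deviations of same-numbered arrays correlated at 0.34 between the depleted groups, which share siRNAs, and between −0.06 and 0.07 elsewhere.

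Leaving out 1 array at a time (a lone array was assumed to vary like the other groups) gave 656 to 2294 probes called for UHRF1 depletion under TSA, 17 to 42 members higher, 0 to 7 lower and medians of 0.53 to 0.70. It gave 3174 to 4486 probes for TSA in siCONT cells and 4638 to 5692 in depleted cells. The rule over 7 arrays gave 152 to 196 members, and moved limits 109 to 186. The software's flag in place of the limits gave 545, including all 147. Of the 12 named calls, 10 were lost with averaged siCONT arrays, and BDNF was lost also without the filter on dim probes, with only the compared arrays in the fit and when any 1 of the 4 siCONT arrays was left out. BDNF was lost by the unadjusted methods' t-test as well. CLIP4 was lost under 11 of 19 alternatives and ANKRD1 under normexp and without either siCONT TSA array. The brighter HBA2 probe was likewise lost without either siCONT TSA array, with changes of 2.45 and 2.46. The causes were not tested.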
